A study of Mus musculus with 2688 samples.

Results

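The genes for the proteins of the cytosolic ribosome were followed across single microglia of CD1 mice at 3 ages. Members were the rows of the count table whose symbol follows the Rpl or Rps naming pattern, including the paralog names (such as Rpl22l1 and Rps27l), together with Rplp0, Rplp1, Rplp2 and Rpsa. Rows named as processed pseudogenes by the suffix -ps were left out. The rule found 84 of 48587 gene rows, and 82 of them had enough counts to be tested among 22550 genes. Rpl6l and Rpl10l did not, and Rpl6l is annotated as a processed pseudogene in GENCODE M21 although its symbol fits the pattern. Several ribosomal proteins fall outside the pattern (for example Rps3a1 and Fau) and are described separately.

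The wild-type microglia came from embryonic forebrain, midbrain, cerebellum and spinal cord (4 replicates each), and, at 3 weeks (3 replicates each) and 16 weeks (4 replicates each), from cerebellum, spinal cord, corpus callosum, hippocampus and cortex. The labels do not give the embryonic day. Cells had been stained for CD11b, CD45, Ly6C, Ly6G and CD206, sorted singly into 384-well plates and processed by SmartSeq2, a full-length protocol that makes cDNA from polyadenylated RNA and does not keep the strand. Kept cells were summed per region and replicate into 51 region samples, which are the units of every comparison. The series states that regions of an age were taken from the same mice, so region samples of an age are not fully independent between regions. Every group lay on 1 plate, and within a region age and plate cannot be told apart.

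As background, a ribosome has a small subunit, whose proteins carry Rps names and which reads the mRNA, and a large subunit, whose proteins carry Rpl names and which joins the amino acids. Rplp0, Rplp1 and Rplp2 form the stalk of the large subunit, where the elongation factors dock. Transcripts of these genes typically begin with a C followed by an unbroken stretch of pyrimidines, the terminal oligopyrimidine element, through which mTOR and Larp1 set their translation and stability together. Mammalian genomes also hold many processed copies of these genes, so that short reads from one gene can match others.

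The region samples held 32 to 62 cells and 5509588 to 22735442 gene counts. All 10 microglia markers were detected, with a summed level of 30920.2 to 45472 CPM (counts per 1000000 counts of TMM-scaled library size) in embryonic samples, 55612 to 72816 at 3 weeks and 51564 to 76423 at 16 weeks. The 6 border macrophage markers summed to 38.4 to 257 CPM in embryonic samples, 0 to 96.3 at 3 weeks and 0 to 34.6 at 16 weeks, and the 20 genes of the G2/M phase to 329 to 3152, 10.1 to 433 and 5.45 to 523. Mitochondrially encoded genes took 3.20 to 5.35% of gene counts in embryonic samples and 0.823 to 2.65% in postnatal ones. These measures moved with age, and their part in the results was not tested, other than by leaving out cycling cells. The 28 blank wells held 386 member reads in all, against a median of 789 in a single kept cell.

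The sequences around the transcription start are shown first, because the terminal oligopyrimidine element for which these genes are known would lie there. RefSeq starts on GRCm38.p6 were matched for 63 members (75 starts). An unbroken run of at least 8 C or T bases that begins with C was looked for within 20 bases on each side of the start, on the gene's strand only. It was found at 31 of the 75 starts (41.3%) and at 4125 of 32851 starts of all genes (12.6%). The examples below are windows of 30 bases, 5′ to 3′, with the run in capitals. Relative to the start base, the first 4 windows begin at -17, -15, -6 and -7, in the order printed. The last 3 begin at -10, -9 and -17. A run need not begin at the start. In Rpl4 it ends before the RefSeq start, and in Rps26 it begins after it. Whether a run is the first part of the transcript was not tested. The first 4 genes fell with age in the comparisons that follow, and the last 3 did not pass the test.
Rpl4 (chr9:64173370-64173399, plus strand): CTTTCCTTTTCCTgtgggagcagccgggta
Rpl14 (chr9:120571502-120571531, plus strand): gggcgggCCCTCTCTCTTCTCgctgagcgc
Rpl13a (chr7:45128722-45128751, minus strand): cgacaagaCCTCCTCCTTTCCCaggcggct
Rps26 (chr10:128626484-128626513, minus strand): agccgccggatCCTCTTTCgagtcttggct
Rpl15 (chr14:18270967-18270996, minus strand): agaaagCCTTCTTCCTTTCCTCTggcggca
Rpl27a (chr7:109519186-109519215, plus strand): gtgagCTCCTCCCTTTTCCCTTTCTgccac
Rpl34 (chr3:130730325-130730354, minus strand): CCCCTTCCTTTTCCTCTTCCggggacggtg
The runs in these windows are 8 to 20 bases long, and the longest belong to genes that did not pass the test.

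As 1 sum, ribosomal protein genes held about 3 times the share of counts in embryonic microglia that they held after birth. The share was 0.823 to 1.22% in the 16 embryonic samples (median 0.983%), 0.284 to 0.374% in the 15 samples at 3 weeks (median 0.324%) and 0.264 to 0.410% in the 20 samples at 16 weeks (median 0.328%). No embryonic sample overlapped a postnatal one, and the range at 3 weeks lay within that at 16 weeks. Over single cells the share had a median of 0.935% in embryonic samples (10th to 90th percentile 0.579 to 1.53%), 0.314% at 3 weeks (0.193 to 0.462%) and 0.311% at 16 weeks (0.176 to 0.487%). A kept cell had reads of 58 members in embryonic samples and of 39 in postnatal ones (medians). Embryonic cells of cerebellum and spinal cord were also read more deeply (medians of 388890 and 340896 counts per cell) than those at 3 weeks (204728 and 227462). Embryonic midbrain cells had medians of 453426 counts and 59 members. Embryonic forebrain cells had 152791 counts and 53 members, and 3-week corpus callosum cells 314814 counts and 42 members. The part of depth in the members detected was not tested. The embryonic 10th percentile of the share over cells lay above the 90th percentile of both later ages. For a single member, the summed samples do not tell fewer cells with its transcript from less of it per cell.

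**Figure D1:**
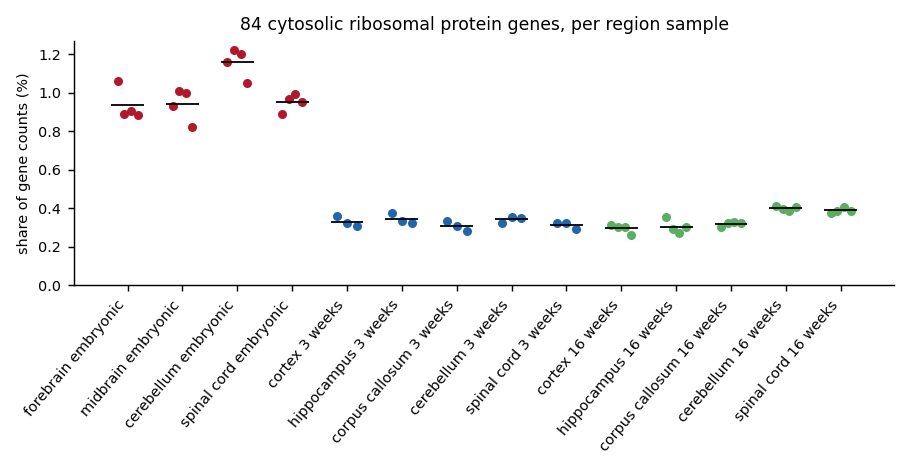
Share of gene counts (%, vertical axis) held by the 84 members in each region sample (points: red, embryonic; blue, 3 weeks; green, 16 weeks), with the group mean as a bar. All embryonic points lie at or above 0.823% and all postnatal points at or below 0.410%.

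Regions of an age differed less than ages did. Among embryonic samples, cerebellum held 1.16, 1.22, 1.20 and 1.05% of counts in members, and spinal cord, from the same plate, 0.889, 0.971, 0.995 and 0.953%. These values do not overlap, while edgeR called no single member between those groups and DESeq2 called 1. At 16 weeks, cerebellum (0.384 to 0.410%) and spinal cord (0.375 to 0.406%) lay above cortex (0.264 to 0.313%), hippocampus (0.271 to 0.353%) and corpus callosum (0.304 to 0.331%). Cerebellum and spinal cord shared a plate that held no other region, so that region and plate cannot be told apart there. At 3 weeks the 5 regions lay between 0.284 and 0.374%.

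Between embryonic and 3-week cerebellum, 32 of 82 members (39.0%) fell and none rose past the threshold (edgeR quasi-likelihood test, adjusted p below 0.05 over all genes tested). Of all genes tested, 2.45% fell and 1.59% rose in that comparison. At an unadjusted p below 0.05, 38 members were lower and 1 was higher, and DESeq2 called 40 lower and 1 higher (Rpl10). Of all 22550 genes tested, 4489 passed that unadjusted level in either direction. DESeq2 called 1154 genes lower and 1137 higher in all. In spinal cord, 27 members (32.9%) fell and none rose, beside 1.2% and 1.25% of all genes, and all 27 were among the 32. There, 41 were lower and 0 higher at an unadjusted p below 0.05, and DESeq2 called 38 and 0. Of all genes tested, 3249 passed that unadjusted level there, and DESeq2 called 1073 genes lower and 573 higher in all. The 27 shared members are 84.4% of the cerebellar calls and 100% of the spinal cord calls. The median change over the 82 members was -1.51 on the log2 scale in cerebellum and -1.26 in spinal cord, against 0.13 and -0.22 over all genes tested. Among the called members the fall ranged from 2.83-fold to 8.03-fold in cerebellum (median 4.60) and from 2.42-fold to 6.44-fold in spinal cord (median 3.78). Without the wells that expressed at least 5 of the 20 G2/M genes, the counts were 32 and 27 again. The share of all genes called with that setting is not given here.

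**Figure D2:**
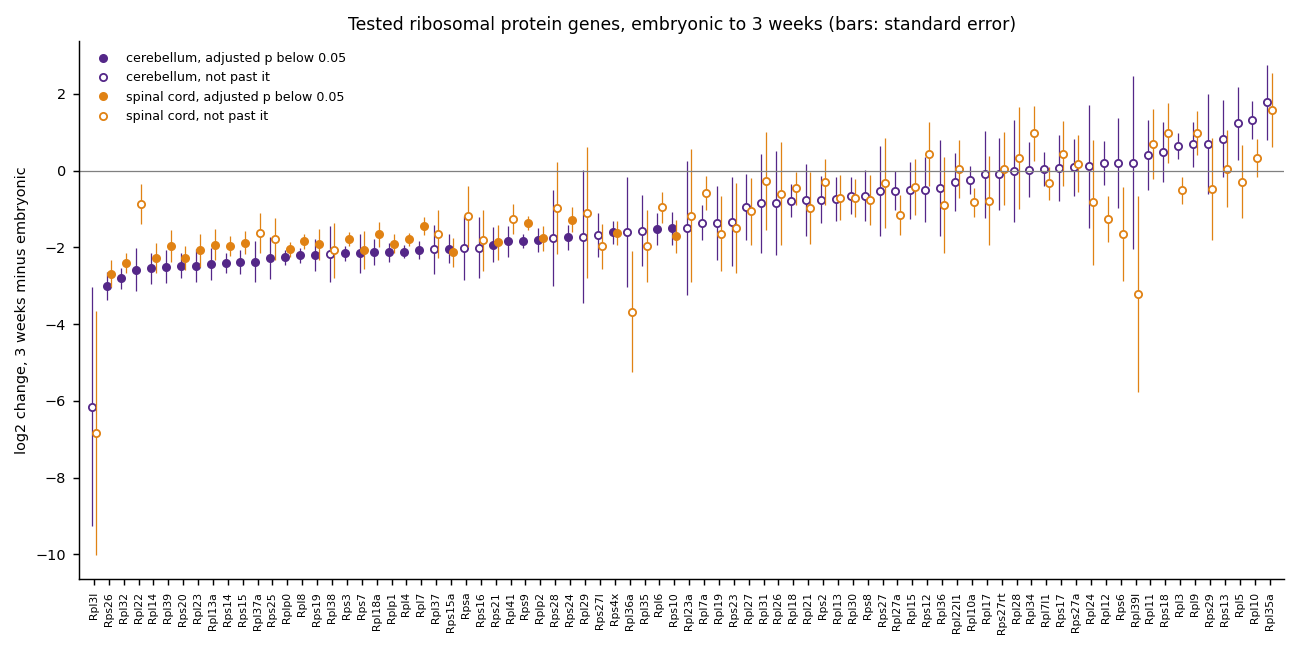
Log2 change from embryonic to 3 weeks (vertical axis, ± standard error) for 80 tested members, ordered by the cerebellar value (purple, cerebellum; orange, spinal cord); filled points passed the test. Every filled point lies below 0, and open points lie on both sides of it; Rpl3l, at the far left, has no counts at 3 weeks, so its fitted value is no measure of size.

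The other regions were then described by whether their samples overlapped. These samples were in neither contrast, but they entered the same fit, its scaling and its spread, and may share mice with the cerebellum and spinal cord samples of their age. All 8 embryonic forebrain and midbrain samples lay above all 9 samples of cortex, hippocampus and corpus callosum at 3 weeks for 27 of the 27 shared members, for 41 of all 82 members and for 2.3% of all genes tested. Against the 12 samples of those regions at 16 weeks it held for 26 of the 27, Rps10 being the exception, for 36 of 82 members and for 2.04% of genes. Over the whole series, 31 of 82 members had every embryonic sample above every postnatal sample, beside 0.851% of genes, and none had every embryonic sample below, beside 0.368%. Regions and plates differ between those age groups too.

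Both subunits held called members. In cerebellum 16 of 32 Rps genes, Rpsa included, and 16 of 50 Rpl genes fell, and in spinal cord 15 and 12 did. The difference between the subunits was not tested. Median changes were -1.75 and -1.64 for the small subunit and -1.16 and -1.08 for the large one, in cerebellum and spinal cord.

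Rps26, which lines the channel through which mRNA leaves the ribosome (chromosome 10, 128624530 to 128626506, minus strand), had the largest fall of the called members. It stood at 126, 141, 142 and 122 CPM in embryonic cerebellum and at 14.4, 15.6 and 19.6 CPM at 3 weeks, an 8.03-fold difference (log2 change -3.005 ± 0.35). In spinal cord the embryonic samples had 84.1, 97.1, 101.4 and 97.0 CPM and the 3-week samples 17.1, 16.8 and 10.2 CPM, a 6.44-fold difference (-2.69 ± 0.35). The groups did not overlap in either region. Rps20, Rps7, Rps15a and Rps14 were further small subunit genes among the 12 largest shared falls, with values between 3.90-fold and 5.59-fold. The spinal cord call of Rps7 was lost without replicate 2 or replicate 3 at 3 weeks (log2 change -1.92 and -2.03), and both of its calls were lost with no filter on low counts.

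Rps3, which sits where mRNA enters the small subunit, was among the most abundant members, with 1451, 1528, 1636 and 1223 CPM in embryonic cerebellum and 275, 390 and 315 CPM at 3 weeks. Its spinal cord samples had 1057, 1142, 1146 and 1097 CPM and then 316, 331 and 320 CPM. The falls were 4.47-fold and 3.45-fold (adjusted p 1.50e-12 and 4.22e-10).

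Among the large subunit genes, Rpl4 had the highest level per length (mean over the 51 samples 510 CPM per kilobase of exon), followed by Rpl8 (482). That order depends on the length used. The GENCODE M21 transcript is 108% of the summed exon length for Rpl4 and 98.7% for Rpl8, and by transcript length Rpl8 would come first of these 2. Rplp1 stood at 272 CPM per kilobase. Rpl4, part of the wall of the peptide exit tunnel (chromosome 9, 64173387 to 64178562, plus strand; its start window is printed above), had 1506, 1930, 1713 and 1506 CPM in embryonic cerebellum and 321, 435 and 397 CPM at 3 weeks. Its spinal cord samples had 1263, 1324, 1392 and 1266 CPM and then 395, 390 and 353 CPM. Rpl4 thus fell 4.33-fold and 3.46-fold in the 2 regions (adjusted p 8.08e-13 and 1.11e-10). Rpl8, which lies at the peptidyl transferase centre, fell 4.61-fold and 3.57-fold, from 896, 918, 1138 and 837 CPM to 220, 186 and 210 CPM in cerebellum. Its spinal cord samples went from 669, 783, 925 and 710 CPM to 263, 188 and 197 CPM. No 3-week value of either gene reached an embryonic one.

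Rpl32 had the largest fall of the large subunit genes called in both regions. It stood at 316, 351, 389 and 261 CPM in embryonic cerebellum and at 42.2, 50.99 and 48.0 CPM at 3 weeks, a 6.997-fold fall. In spinal cord it stood at 225, 250, 268 and 239 CPM and then at 58.7, 45.6 and 34.4 CPM, a 5.30-fold fall. Rpl14 fell 5.85-fold and 4.84-fold, Rpl23 5.57-fold and 4.23-fold, and Rpl39, a small protein of the exit tunnel, 5.67-fold and 3.89-fold. With no filter on low counts Rpl39 missed the threshold in spinal cord.

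All 3 stalk genes fell in both regions. Rplp0, the base of the stalk, had 760, 846, 916 and 713 CPM in embryonic cerebellum and 189, 161 and 156 CPM at 3 weeks (4.79-fold, adjusted p 2.30e-12). In spinal cord Rplp0 had 585, 608, 645 and 544 CPM and then 152, 143 and 136 CPM (4.15-fold, adjusted p 6.07e-11). Rplp1 fell 4.36-fold in cerebellum, from 341, 352, 388 and 263 CPM to 79.3, 69.0 and 82.9 CPM, and 3.75-fold in spinal cord, from 277, 239, 295 and 239 CPM to 82.6, 66.8 and 60.2 CPM. Rplp2 fell 3.49-fold and 3.40-fold. None of the stalk genes had overlapping groups.

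Rpl22, an RNA-binding large subunit protein, was called in cerebellum only. It had 141, 251, 241 and 130 CPM in embryonic cerebellum and 40.2, 29.3 and 26.4 CPM at 3 weeks (5.97-fold lower, adjusted p 0.00165). In spinal cord Rpl22 had 111, 77.1, 141 and 96.5 CPM in embryonic samples and 31.4, 71.7 and 71.0 CPM at 3 weeks, a log2 change of -0.88 ± 0.51 (adjusted p 0.408). The test of the difference between the regions' changes called none of the 82 members with edgeR, including Rpl22. At an unadjusted p below 0.05 that difference was passed by 3 members, beside 2631 of all 22550 genes tested, and DESeq2 called no member. Of all genes tested, 0.00443% were called as lower by that test and 0% as higher. Rpl6, Rpl37a, Rpl41 and Rps25 were the other members called in cerebellum alone, and Rps25 lost its call without replicate 1 of 3-week cerebellum (log2 change -2.22) and with no filter on low counts (-2.28).

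**Figure D3:**
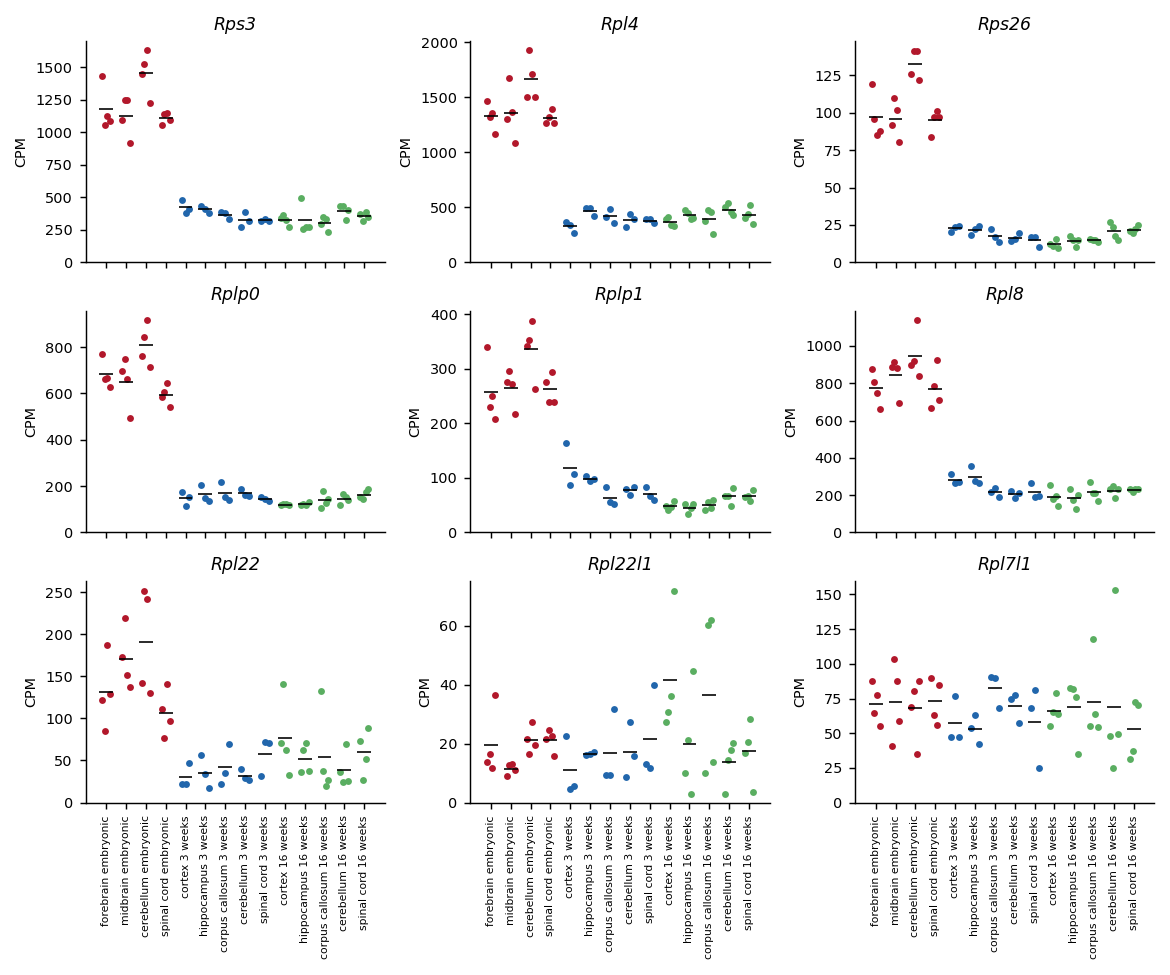
Level in CPM (vertical axes, starting at 0) of 9 members in every region sample (points: red, embryonic; blue, 3 weeks; green, 16 weeks), with group means as bars. Rps3, Rpl4, Rps26, Rplp0, Rplp1 and Rpl8 have all embryonic samples above all postnatal ones, and Rpl22, Rpl22l1 and Rpl7l1 do not.

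Many members did not pass the test, and their values spread on both sides of 0, though unevenly. Of all 82 tested members, called ones included, 65 lay below 0 and 17 above in cerebellum, and 69 and 13 in spinal cord. The 5 with the change nearest 0 in both regions, among the more abundant members, were Rpl7l1, Rpl15, Rpl3, Rpl30 and Rpl13. Nearest 0 is a rank and does not mean unchanged. Over all samples, the ratio of the embryonic to the postnatal median was 1.15 for Rpl7l1, 1.99 for Rpl15 and 0.966 for Rpl3. It was 1.72 for Rpl30 and 1.53 for Rpl13. Rpl3, which reaches the peptidyl transferase centre, stood at 54.4, 52.4, 79.6 and 58.8 CPM in embryonic cerebellum and at 77.0, 105 and 105 CPM at 3 weeks. In spinal cord Rpl3 stood at 111, 117, 69.6 and 142 CPM and then at 82.6, 77.9 and 69.6 CPM. The age groups of Rpl3 overlapped in both regions. Rpl15 ranged from 39.9 to 80.9 CPM in embryonic cerebellum and from 24.02 to 50.4 CPM at 3 weeks. Rpsa, a small subunit protein also known as the laminin receptor, had 23.7, 38.8, 43.6 and 34.8 CPM in embryonic cerebellum and 6.27, 11.01 and 8.91 CPM at 3 weeks, which do not overlap, with an adjusted p of 0.168.

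The members called in both regions carried most of the counts. The 27 shared members held 83.0 to 87.6% of member counts in embryonic samples (median 85.6%), 67.0 to 78.7% at 3 weeks (73.2%) and 67.4 to 76.7% at 16 weeks (72.1%). Their summed level had a median of 8624 CPM in embryonic samples, 2333 CPM at 3 weeks and 2270 CPM at 16 weeks. The 50 members called in neither region summed to a median of 1131, 738 and 818 CPM. Since the 27 were chosen by the fall, these sums describe them and test nothing.

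Members differ widely in how much of their coding sequence is found nowhere else, and the calls were unevenly spread over that measure. For each member the share of 50-base stretches of its coding sequence that occur in no other gene's GENCODE M21 transcript, on either strand, was computed. Whether reads that match several genes were counted, and how, is not given in the sources used here, and the choice of 50 bases is not a read length. Of the 30 tested members with no such unique stretch (Rpl15, Rpl27a and Rpl10 among them), 1 fell in cerebellum (Rpl41, singled out after its value was seen) and 0 in spinal cord, and their median changes were -0.50 and -0.74. Of 15 members with more than 0 and under 10% unique stretches, 6 and 4 fell (medians -1.51 and -1.09). From 10 to under 30% it was 11 and 10 of 19 (-2.05 and -1.62). At 30% or more it was 14 and 13 of 18 (-2.18 and -1.89).

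The members at or above 30% that were called in neither region were Rpl3l, Rpl39l, Rpl7l1 and Rps27l, all of them named as paralogs, and Rpl22 was the one called in cerebellum only. The median share was 27.03% among the 27 members that fell in both regions and 0% among the 50 called in neither. Across the 82 members, Spearman's rho between the unique share and the log2 change was -0.56 in cerebellum and -0.49 in spinal cord, and 0.60 between the unique share and the level per length. These are descriptions over genes, which share the libraries and are not replicates. The median level was 7.77 CPM at 0% and 127 CPM at 30% or more, so low counts and shared sequence went together, and their part in which members were called was not tested. For members with little unique sequence the level itself is uncertain, since their reads can be split among copies.

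**Figure D4:**
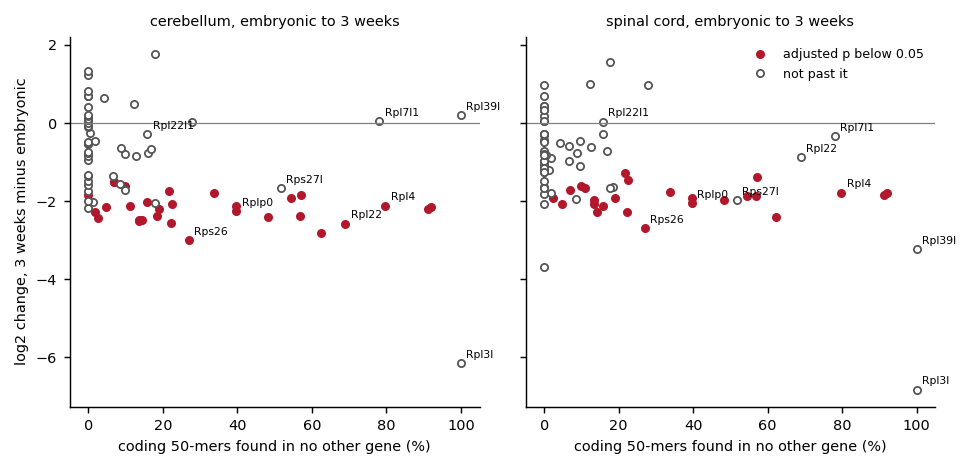
Log2 change from embryonic to 3 weeks (vertical axis) against the share of a member's 50-base coding stretches found in no other gene (%, horizontal axis), 1 point for each of 80 tested members; filled points passed the test. The filled points at a unique share of 30% or more lie between -2.81 (Rpl32, cerebellum) and -1.37 (Rps9, spinal cord), while members at 0% spread from -3.68 (Rpl36a, spinal cord) to 1.32 (Rpl10, cerebellum).

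The pyrimidine run did not separate the called members. Runs of at least 8 bases within 20 bases of a RefSeq start were counted among members with such a start. They were found in 10 of the 18 that fell in both regions and in 19 of the 39 called in neither. The longest runs had a median of 8 and 7 bases.

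The rows named as pseudogenes were no members, but their reads moved the same way. The 275 such rows held 0.0170 to 0.0311% of gene counts in embryonic samples, 0.00339 to 0.00787% at 3 weeks and 0.00437 to 0.00909% at 16 weeks. Blank wells held 0.0640% of their few reads in these rows, more than any of these samples.

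Paralogs with tissue-restricted or regulated expression were compared with their canonical partners by the ratio of reads. Of 6 pairs, 3 had at least 10 counts of both genes in every sample. Rpl22l1, the paralog of Rpl22, had 0.152, 0.0651, 0.113 and 0.150 reads per Rpl22 read in embryonic cerebellum and 0.217, 0.937 and 0.598 at 3 weeks. The mean log2 ratio was -3.14 ± 0.57 (SD, n = 4) and then -1.01 ± 1.08 (SD, n = 3), with an exact two-sided permutation p of 0.0286, the smallest that 35 splits of 7 samples allow. Adjusted over the 6 ratios tested (3 pairs in 2 regions) p was 0.0857, which misses the threshold. In spinal cord the ratios of Rpl22l1 were 0.194, 0.319, 0.160 and 0.165 and then 0.419, 0.166 and 0.564, which overlap (difference 0.76, exact permutation p 0.2, adjusted 0.24). Rpl22l1 itself stood at 21.5, 16.4, 27.3 and 19.5 CPM in embryonic cerebellum and at 8.71, 27.5 and 15.8 CPM at 3 weeks, with a log2 change of -0.29 ± 0.76 (SE) and an adjusted p of 0.899.

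Rpl7l1, a paralog of Rpl7 with a role in ribosome assembly in the nucleolus, gave a like pattern. In cerebellum it had 0.265, 0.236, 0.112 and 0.342 reads per Rpl7 read in embryonic samples and 1.06, 1.08 and 0.861 at 3 weeks, a log2 difference of 2.17 (exact permutation p 0.0286, adjusted 0.0857). In spinal cord the ratios were 0.446, 0.312, 0.273 and 0.514 and then 0.788, 1.27 and 0.413, a difference of 0.99 (exact permutation p 0.143, adjusted 0.214). Rpl7 fell 4.21-fold and 2.74-fold, while Rpl7l1 stood at 68.8, 80.4, 35.3 and 87.3 CPM in embryonic cerebellum and at 74.4, 77.6 and 57.6 CPM at 3 weeks. The log2 change of Rpl7l1 was 0.04 ± 0.43 (SE) in cerebellum (adjusted p 1.0) and -0.33 ± 0.44 in spinal cord (adjusted p 0.767), standard errors that leave room for a change in either direction.

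Rps27l, a target of p53 in many cells, ran the other way against Rps27. Its ratio had a log2 difference of -0.94 in cerebellum and -1.60 in spinal cord (exact permutation p 0.257 and 0.0857, adjusted 0.257 and 0.171). The level of Rps27l was 37.5 to 71.2 CPM in embryonic cerebellum and 15.3 to 18.02 CPM at 3 weeks, with an adjusted p of 0.0959, and its spinal cord comparison had an adjusted p of 0.0540. Rps27 has no unique coding stretch, so its part of the ratio is uncertain.

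The paralogs known from muscle or testis had few counts, spread over few samples. Rpl3l, the form of striated muscle, was at 0 in 3-week cerebellum and spinal cord and had 51 and 71 counts in the embryonic groups, most of them in 1 replicate each (2.73 CPM in replicate 2 of cerebellum and 4.62 CPM in replicate 1 of spinal cord). Rpl39l, a testis form, had 110 counts in embryonic cerebellum and 63 at 3 weeks. Rpl10l, another testis form, had 2 to 3 counts in these cerebellar groups, and Rpl6l 10 and 3. Over all 51 samples Rpl39l had 657 counts in 28 samples, Rpl3l 197 in 11, Rpl10l 82 in 14 and Rpl6l 41 in 20. The highest 16-week samples reached 8.69 CPM for Rpl39l, 5.93 CPM for Rpl3l and 3.98 CPM for Rpl10l. Some canonical members had as few counts, such as Rpl29 with 397 and Rpl23a with 261, both singled out after their values were seen. Rps27rt, which has no unique coding stretch, stood between 1.41 and 3.30 CPM in cerebellum at both ages.

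From embryonic to 16 weeks, which uses the same embryonic samples again, 32 members fell and none rose in cerebellum, and 26 fell and none rose in spinal cord (edgeR). Of all genes tested, 3.58% fell and 2.08% rose in cerebellum, and 2.94% fell and 1.78% rose in spinal cord. At an unadjusted p below 0.05, 3 and 0 members were higher, and DESeq2 called 3 (Rpl9, Rpl35a and Rpl10) and 1 (Rps27rt) higher. Of all 22550 genes tested, 4826 in cerebellum and 4217 in spinal cord passed that unadjusted level in either direction. DESeq2 called 1322 and 991 genes higher in all. Among the largest falls in cerebellum were those of Rpsa, Rps26, Rplp0 and Rpl32. Rpsa went from the embryonic values above to 4.45, 4.33, 6.91 and 1.08 CPM, an 8.37-fold fall (adjusted p 0.00857). Only 1.20% of the coding stretches of Rpsa are unique, so its level is uncertain. Rplp0 had 118, 167, 154 and 140 CPM at 16 weeks, a 5.58-fold fall. In spinal cord the largest were Rps26 (4.33-fold), Rps19 (4.05-fold), Rplp1 (3.94-fold), Rps25 (3.66-fold) and Rplp0 (3.64-fold). In spinal cord DESeq2 called 40 members lower, beside 1368 of all genes. With spike-in scaling edgeR called 48 members lower, beside 3278 of all genes, against 663 of all genes with the TMM scaling.

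Between 3 and 16 weeks edgeR called 1 member, the stalk protein gene Rplp1, in cortex and in hippocampus, and DESeq2 called more, as given below. In cortex it stood at 163, 87.2 and 107 CPM at 3 weeks and at 48.0, 41.3, 47.0 and 56.9 CPM at 16 weeks, a 2.46-fold fall (log2 change -1.30 ± 0.23, adjusted p 0.00183). In hippocampus Rplp1 stood at 104, 94.1 and 98.1 CPM and then at 51.9, 33.7, 44.5 and 52.0 CPM, a 2.17-fold fall (-1.12 ± 0.23, adjusted p 0.00992). The groups did not overlap in either region. The cortical call was lost without replicate 1 at 3 weeks, the highest sample, where the log2 change was -1.01. The hippocampal call was lost without replicate 1 at 3 weeks (-1.08) and without replicate 2 at 16 weeks (-0.995), and neither region called a member when only the groups compared entered the fit. With no filter on low counts both Rplp1 calls were lost too (edgeR adjusted p 0.0675 in cortex and 0.247 in hippocampus). These single calls of 82 members (1.22%) stand beside 0.102% of all genes that fell in cortex and 0.2% in hippocampus. No member rose in either, beside 0.0798% and 0.102% of all genes. At an unadjusted p below 0.05, 10 members were lower and 3 higher in cortex, and 5 and 0 in hippocampus. Of all 22550 genes tested, 2249 and 2960 passed that level in either direction. DESeq2 called 7 members lower and 1 higher in cortex, and 4 and 0 in hippocampus. Over all genes it called 352 lower and 519 higher in cortex, and 562 and 463 in hippocampus.

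Rpl8 in hippocampus fell short of the threshold, with 355, 279 and 266 CPM at 3 weeks and 233, 173, 126 and 202 CPM at 16 weeks (adjusted p 0.0843). No member was called by edgeR in corpus callosum, cerebellum or spinal cord between 3 and 16 weeks. Of all genes tested, 0.0355% fell and 0% rose in corpus callosum, 0.00443% and 0.00887% in cerebellum, and 0.0222% and 0.00887% in spinal cord. At an unadjusted p below 0.05 there were 1 member lower and 0 higher in corpus callosum, 1 and 4 in cerebellum, and 0 and 10 in spinal cord. Of all 22550 genes tested, 3306, 3074 and 2567 passed that level in either direction in those regions. DESeq2 called 0 members lower and 2 higher, 1 and 2, and 0 and 16. Over all genes it called 237 lower and 589 higher, 529 and 252, and 331 and 430.

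Pairs of regions on 1 plate called no member with edgeR at any age, and of all genes tested between 0 and 0.0266% were called in a direction. Embryonic spinal cord against cerebellum had, at an unadjusted p below 0.05, 8 members lower and 1 higher of 82, and 1994 of all 22550 genes passed it in either direction. The other 5 pairs had 1 to 3 members at that level, beside 1200 to 3850 of all 22550 genes. At the adjusted threshold midbrain against forebrain called 0.00443% of all genes in each direction. Cerebellum against corpus callosum at 3 weeks called 0.0133% lower. DESeq2 called 0 or 1 member per direction in each of the 6 pairs, beside 50 to 620 of all genes. The difference between spinal cord and cerebellum in the change from 3 to 16 weeks called no member with edgeR (0.00887% of all genes lower and 0.0177% higher), 1 at an unadjusted p below 0.05 and 2 with DESeq2. Of all genes, 2710 passed that unadjusted level, and DESeq2 called 269 lower and 576 higher.

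**Figure D5:**
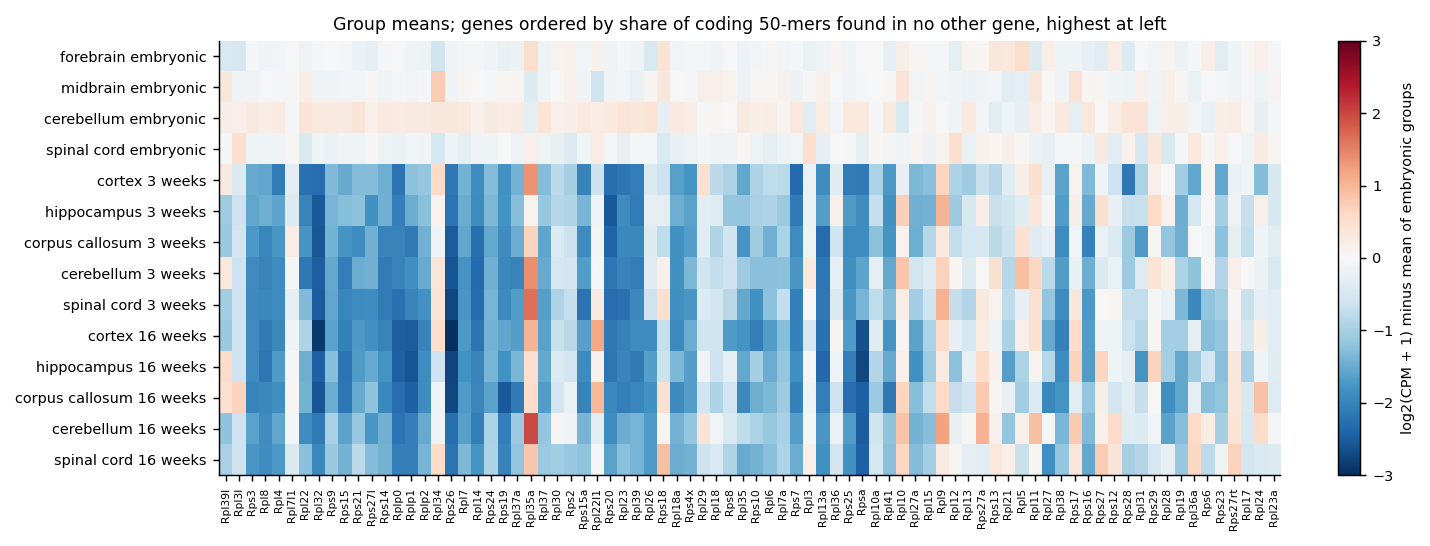
Group means of log2(CPM + 1), relative to the mean of the 4 embryonic groups, for 80 tested members ordered from the highest to the lowest share of unique coding stretches (left to right). Columns such as Rps3, Rps26 and Rpl32 are dark blue (lower) in all 10 postnatal groups, and the columns at the right, with little or no unique sequence, mix pale blue and red (higher). Members with no unique stretch had a median of 7.77 CPM, and the added 1 shrinks the changes of such low members.

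Other genes of the translation machinery were counted from lists. Of 6 ribosomal protein genes outside the naming rule, 3 fell in cerebellum and 2 in spinal cord from embryonic to 3 weeks, and none rose. Rack1, a scaffold on the small subunit, went from a mean of 1699.9 ± 152 (SD, n = 4) to 369 ± 51.3 CPM (SD, n = 3) in cerebellum (4.60-fold) and fell 3.15-fold in spinal cord. Rps3a1 fell 3.77-fold and 2.71-fold. The list's medians were -1.76 and -1.40 on the log2 scale.

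In the list of 8 elongation genes, 6 fell in cerebellum, 4 of them also in spinal cord, and none rose. Eef1b2, which recharges the factor that brings amino acids to the ribosome, fell 4.81-fold and 3.77-fold. Eif5a fell 3.16-fold and 3.03-fold, and Eef1a1, the factor that delivers the loaded tRNA, 3.70-fold and 2.81-fold (2287 to 618 CPM and 1650.3 to 588 CPM on average). Of 30 initiation genes, 10 fell and 1 rose in cerebellum, and 6 fell and none rose in spinal cord. Pabpc1, the poly(A) binding protein, fell 3.36-fold and 3.18-fold, Eif4b, a helper of the initiation helicase, 3.89-fold and 3.03-fold, and Eif3f 4.73-fold and 2.96-fold. The one that rose was Eif4a2, a helicase (2.10-fold in cerebellum), named after its value was seen.

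Lists for making ribosomes were counted next. Of 29 ribosome biogenesis genes, 3 cerebellar and 2 spinal cord values fell past the threshold, with medians of -0.66 and -0.81. DESeq2 called 3 and 4 of them lower, and 7 and 5 were lower at an unadjusted p below 0.05. That unadjusted level was passed by 4489 and 3249 of all 22550 genes in either direction. Both spinal cord calls were nucleolar proteins, Npm1 (4.58-fold and 4.02-fold lower in the 2 regions) and Ncl (2.48-fold and 2.17-fold). Of 11 genes for RNA polymerase I, which transcribes ribosomal RNA, and its factors, 1 fell in cerebellum (Polr1d, named after its value was seen). In spinal cord 0 fell, 0 passed an unadjusted p below 0.05 and DESeq2 called 0. None of 15 genes listed for control by mTOR and of terminal oligopyrimidine transcripts, Myc, Max and Larp4 included, was called in either region by edgeR or DESeq2. At an unadjusted p below 0.05 there were 2 lower and 1 higher in cerebellum and 1 lower in spinal cord. The 6 snoRNA host genes, whose transcripts also carry a terminal oligopyrimidine element, had 0 calls by either tool and 0 at an unadjusted p below 0.05. Of 79 tested genes for mitochondrial ribosomal proteins, 3 fell in cerebellum (Mrpl14, Mrpl20 and Mrpl54) and 2 in spinal cord (Mrpl12 and Mrpl42), where 2.45% and 1.2% of all genes fell. DESeq2 called 12 lower and 1 higher in cerebellum, and 6 lower and 0 higher in spinal cord. Unadjusted p-values below 0.05 were found for 20 lower and 1 higher, and for 11 lower and 0 higher. The list's medians were -0.89 and -0.52. These 5 were named after their values were seen.

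Cycling and other embryonic cells had overlapping member shares. In the 16 samples, cells with at least 5 of 20 G2/M genes (161 cells) held 0.811 to 1.34% of counts in members (median 0.945%), and the other 540 cells 0.819 to 1.23% (median 1.00%). The cycling cells had the higher share in 6 of 16 samples.

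The spike-in RNA gives a scale that is not set by the other genes. Per spike-in read, embryonic cells gave 513 to 952 gene reads, against 381 to 620 at 3 weeks and 287 to 452 at 16 weeks. Member reads per spike-in read averaged 7.42 in embryonic and 1.41 in 3-week cerebellum, and 6.79 and 1.38 in spinal cord. With library sizes taken from the spike-ins, 36 members fell in cerebellum and 36 in spinal cord between embryonic and 3 weeks. Of all genes, 553 and 270 fell with the TMM scaling, and 932 and 883 with the spike-in scaling. The median of all genes moved by that scaling to -0.17 in cerebellum and -0.92 in spinal cord, and the members' median lay 1.83 and 1.03 below it on the log2 scale. With the TMM scaling it lay 1.64 and 1.04 below.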

How the data were processed

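The authors deposited unnormalised read counts per gene and well of single cells. Per the submitters' processing notes, STAR 2.5.2b, featureCounts 1.6.2 and GRCm38 were used. How reads that match several genes were counted is not given in the sources used here. Per the file headers, the table also gives each gene's position and a Length, the summed exon length, used here for levels per kilobase.

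In each plate row, the deposited values of well 1 include the reads of wells 10 to 19, and those of well 2 include wells 20 to 24. These were subtracted, which left 0 of 1960623 gene rows of 224 wells below 0. Wells with at least 500 genes and at most 20% mitochondrial counts were kept (2402 of 2660 sorted wells on 7 plates) and summed into 51 region samples of 14 groups. The labels name replicates, and p-values measure the spread between those samples.

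Tests used edgeR 4.0.16 in R 4.3.3 (TMM, filterByExpr, robust quasi-likelihood F test, two-sided, trended dispersion) in 1 fit of all samples, with Benjamini-Hochberg adjustment over 22550 genes and a threshold of 0.05. CPM are counts per 1000000 of TMM-scaled library size. The step was tested on simulated counts with known large changes, placed only in genes with high counts. That simulation did not cover smaller changes, low members, or shared plates and mice. Paralog ratios used an exact permutation test. DESeq2 1.42.0, other scalings, filters, wells and left-out samples were alternatives. Coding sequences came from GENCODE M21 (83 members) and starts from RefSeq.

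Members and lists were chosen with earlier results of these data known. The members named are the paralogs, Rpsa and the stalk genes, the 5 highest per length, the 12 largest shared falls, the 5 nearest 0 and, elsewhere, the calls or the 5 largest. Some members that this rule names are not reported here. From each list up to 3 genes called in both regions are named. The marker lists of monocytes, neutrophils, neurons, astrocytes, oligodendrocytes, endothelium and erythroid cells were summed as well.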

Additional observations from a re-analysis of the deposited data

Results flagged for a closer look

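Each sample's value of 12 members and of the summed share was compared with the other 3 of its group by the gap to the nearest sample, relative to the group's range, in groups of 4. Of 117 such checks 8 stood out, where chance gives about 1 in 20. In the embryonic forebrain the summed share of replicate 1 was 1.06%, against 0.904% for the next. Rpl7 was lowest at 165 CPM in 1 embryonic spinal cord sample (next 201). Rpl8 was lowest at 693 CPM in embryonic midbrain (next 883) and at 214.6 CPM in spinal cord at 16 weeks (next 233). In corpus callosum at 16 weeks Rpl22 reached 133 CPM in 1 sample (next 37.0) and Rpl7l1 118 CPM in another (next 63.7). In hippocampus at 16 weeks Rps3 reached 496 CPM (next 273) and Rpl7l1 was lowest at 35.2 CPM (next 75.7).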

How the results depend on the processing

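The alternatives were counts as deposited, wells outside plate columns 1 and 2, wells with 1500 or more genes, no cycling wells, RLE or spike-in scaling, no filter on low counts, only the groups compared in the fit, DESeq2, a replicate block and each sample left out in turn, with the genes and dispersion trend of the full fit kept. Between embryonic and 3 weeks the members that fell numbered 27 to 40 in cerebellum and 22 to 38 in spinal cord, and 29 to 32 and 23 to 27 with a sample left out. DESeq2 called 1 member higher in cerebellum. For the 35 values of named members called there, 346 of 350 values under other settings and 242 of 245 with a sample left out kept direction and side of the threshold, and none reversed. Between embryonic and 16 weeks, spinal cord had 40 members lower by DESeq2 and 48 with spike-in scaling, 1 higher by DESeq2, and 21 to 23 lower with a sample left out. Cerebellum had 31 to 34 lower and 0 to 1 higher with a sample left out, 1 higher with counts as deposited and 3 by DESeq2. Between 3 and 16 weeks, cortex had 7 lower and 1 higher by DESeq2, 0 lower with no filter or only the groups compared, and 0 to 1 with a sample left out. Hippocampus had 2 lower with counts as deposited, 4 by DESeq2, 3 with spike-in scaling, 0 with no filter or only the groups compared, and 0 to 2 with a sample left out. DESeq2 called 2 higher in corpus callosum, 1 lower and 2 higher in cerebellum and 16 higher in spinal cord. It also called 1 lower for spinal cord against cerebellum in embryonic samples, 1 lower and 1 higher at 16 weeks, 1 higher for hippocampus against cortex at 3 weeks and 2 higher for the difference of the change from 3 to 16 weeks. The causes were not tested. With spike-in scaling 3278 of all genes were lower in spinal cord from embryonic to 16 weeks, against 663 with TMM. In hippocampus from 3 to 16 weeks it was 135, against 45. RLE scaling moved the rising share of all calls in cerebellum, embryonic to 3 weeks, from 39.3 to 51.5%, and spike-in scaling to 10.98%. With the replicate block 33 and 27 members fell from embryonic to 3 weeks in cerebellum and spinal cord. To 16 weeks it was 33 and 27, and from 3 to 16 weeks 1 each in cortex and hippocampus. For the block, filters, wells and left-out samples the counts over all genes are not given here. Those member counts therefore stand without that share. For these age comparisons the block was the replicate number, shared by all ages. It joined samples of different mice, so these counts do not test a pairing by mouse. Deviations of same-numbered samples in the region pairs had correlations of -0.012 to 0.033. In most postnatal cases this lay above the highest correlation with another number (number 2 of hippocampus and cortex: 0.024 against -0.011). It lay below for number 1 of corpus callosum and hippocampus (0.0068 against 0.021) and in most embryonic cases. The reported tests did not pair samples by number. The median over wells in place of the sum moved the member share by over 1 SD in 6 of 14 groups. Depth limits what can be seen in the low members, and the 30 with no unique coding stretch had a median of 7.77 CPM.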

Other observations

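The other marker lists gave these summed levels (lowest to highest region sample in CPM, embryonic, 3 weeks and 16 weeks). Monocyte markers summed to 1.28 to 30.8, 4.59 to 29.3 and 1.31 to 67.8. Neutrophil markers summed to 0 to 2.61, 0 to 2.99 and 0 to 3.45. Neuronal markers summed to 5.53 to 261, 0.288 to 43.6 and 0.891 to 57.2. Astrocyte markers summed to 5.78 to 80.8, 66.8 to 288 and 126 to 356. Oligodendrocyte markers summed to 86.7 to 240, 68.6 to 253 and 61.3 to 332. Endothelial markers summed to 18.8 to 129, 2.70 to 119 and 0.467 to 112. Erythroid markers summed to 0.0568 to 93.8, 0 to 5.11 and 0 to 21.4, and Hba-a2 was at 0 in all samples.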
